A study of Mus musculus with 9 samples.

Results

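The proteasome subunit genes were followed in mouse round spermatids (RS), the haploid germ cells that come out of meiosis and have not yet begun to elongate. Members were the genes whose symbols begin with Psm, a letter from a to g and a number, without the pseudogene suffix -ps, and which had at least 10 reads summed over the 9 libraries. The pattern matched 51 genes, and 48 of the 25128 genes tested passed the read minimum. Psmb8, with 2 reads in all, Psmb9, with 1, and Psme2b, with 0, fell under it and are in no count below. Of the 48, Psmc3ip and Psme3ip1 match by name only: the product of Psmc3ip acts in meiotic recombination and that of Psme3ip1 binds an activator of the proteasome, and neither is a part of the particle.

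The proteasome is the protease that degrades proteins tagged with ubiquitin. Its barrel-shaped core particle is built from rings of alpha and beta subunits, and 3 of the beta subunits, encoded by Psmb5, Psmb6 and Psmb7, cut the substrate. A regulatory particle, with a base that holds a ring of ATPases (Psmc genes) and a lid (most Psmd genes), binds and unfolds tagged proteins, while other activators (Psme genes) can take its place. Male germ cells make a core alpha subunit of their own, Psma8, in place of Psma7, and use the activator Psme4 during the replacement of histones in spermatids, so that turnover of proteins is closely tied to how the sperm head forms.

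RS, labelled wild type, were incubated for 24 h in 3 ways: in vehicle (0.15% DMSO), in 24 mM oxamate, which blocks lactate dehydrogenases, and in the same oxamate together with octyl-L-2HG at 0.3 mM. The last is a form of L-2-hydroxyglutarate (L-2HG) that crosses cell membranes. All 3 groups received the same DMSO and the same medium with lactate and pyruvate. The cells were sorted from testes of Stra8-Tom mice, in which Cre under the Stra8 promoter switches on a red reporter in germ cells, and there were 3 libraries a group, of which 1 to 3 are vehicle, 4 to 6 are oxamate and 7 to 9 received both compounds. Neither the labels nor the methods say whether the libraries of a group came from separate animals, so that p-values measure only the spread between these libraries. There was no group with octyl-L-2HG alone. Oxamate was meant to lower L-2HG and the ester to restore it, and the comparison of the 3 groups asks which transcripts move with either step.

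The libraries held from 32339533 to 39888396 counted reads. The 8 markers of round spermatids fixed for the check were all detected, with summed levels, in CPM (read counts scaled to a common library size), of 6120 to 6690 with vehicle, 5650 to 6430 with oxamate and 5400 to 5830 with both compounds. Of these 8 genes, 2 were called higher and 2 lower with both compounds against vehicle, 1 lower against oxamate and none with oxamate against vehicle. Among markers of other cells, the 6 for spermatocytes, the meiotic cells before RS, summed to 490 to 569 CPM with vehicle, 479 to 552 with oxamate and 468 to 493 with both compounds, and none was called. The 5 spermatogonial markers summed to between 5.34 and 6.97 CPM. The 5 Sertoli cell markers summed to at most 0.185 CPM, the 4 myoid cell markers to at most 1.42 CPM, the 4 Leydig cell markers to at most 0.913 CPM and the 6 leukocyte markers to between 3.13 and 4.57 CPM, with Lyz2 at 0. The 3 endothelial markers summed to 3.49 to 4.51 CPM with vehicle, 4.37 to 5.95 with oxamate and 4.39 to 4.64 with both compounds, and 1 of them was called higher in each comparison with vehicle. The 5 markers of elongating spermatids, Prm1 and Tnp1 among them, fell along the groups, from a sum of 761 to 857 CPM with vehicle to 613 to 663 CPM with oxamate and 477 to 502 CPM with both compounds. Of these 5 genes, 4 were called lower with oxamate against vehicle and all 5 in each comparison with octyl-L-2HG. The part of these other cells and of the marker changes in the results on the proteasome genes, the level of Psma8 included, was not tested, and in RNA from many cells a smaller share of a cell type and less RNA per cell cannot be told apart. Oxamate library 4 was the highest of its group for 35 of the 48 members, and for 12 of the 15 core genes. Vehicle library 1 was likewise the highest of its group for 30 members and for 11 of the core genes. Leaving out library 4 moved several counts of members called by over 1.5 times, and results without it are given below. Leaving out library 1 did not.

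Nearly all proteasome genes were well expressed in RS. Normalized counts, which are counts divided by a size factor of the library, averaged at least 1000 for 30 of the 48 members and at least 100 for 42, and lay under 20 for 5 (Psmb10, Psmb11, Psme1, Psme2 and Psmg3). Psme4, the activator that binds the core of spermatids, collected the most reads over all libraries, with 40540.3, 44074 and 47209 normalized counts with vehicle (mean 43941 ± 3336, SD, n = 3). Psmc3, an ATPase of the base, had more in vehicle library 1 (41653) and in oxamate library 4 (42043). A long transcript collects more reads, so that levels of different genes are set against each other as CPM per kilobase of transcript. On that scale Psmc3 came first with 600.7 ± 32.3, followed by Psma6, a core alpha subunit, with 335.7 ± 16.5. Next were Psmc2, another ATPase, with 284.9 ± 1.98, and the catalytic Psmb6 with 262.9 ± 26.5, and these neighbours did not differ beyond their spread. Psmd8 of the lid had 194.8 ± 10.3, Psme4 188.3 ± 13.6 and Psmd2 of the base 185.4 ± 10.9, and these 3 lay within 1 SD of each other. Subunits that stand in equal numbers in the particle had transcript levels that differed widely: among Psma1 to Psma6 the level ran from 4.303 for Psma2 to 335.7 for Psma6. The lengths were those of the longest coding transcript of each gene in another annotation, and the isoform that RS express was not known.

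**Figure D1:**
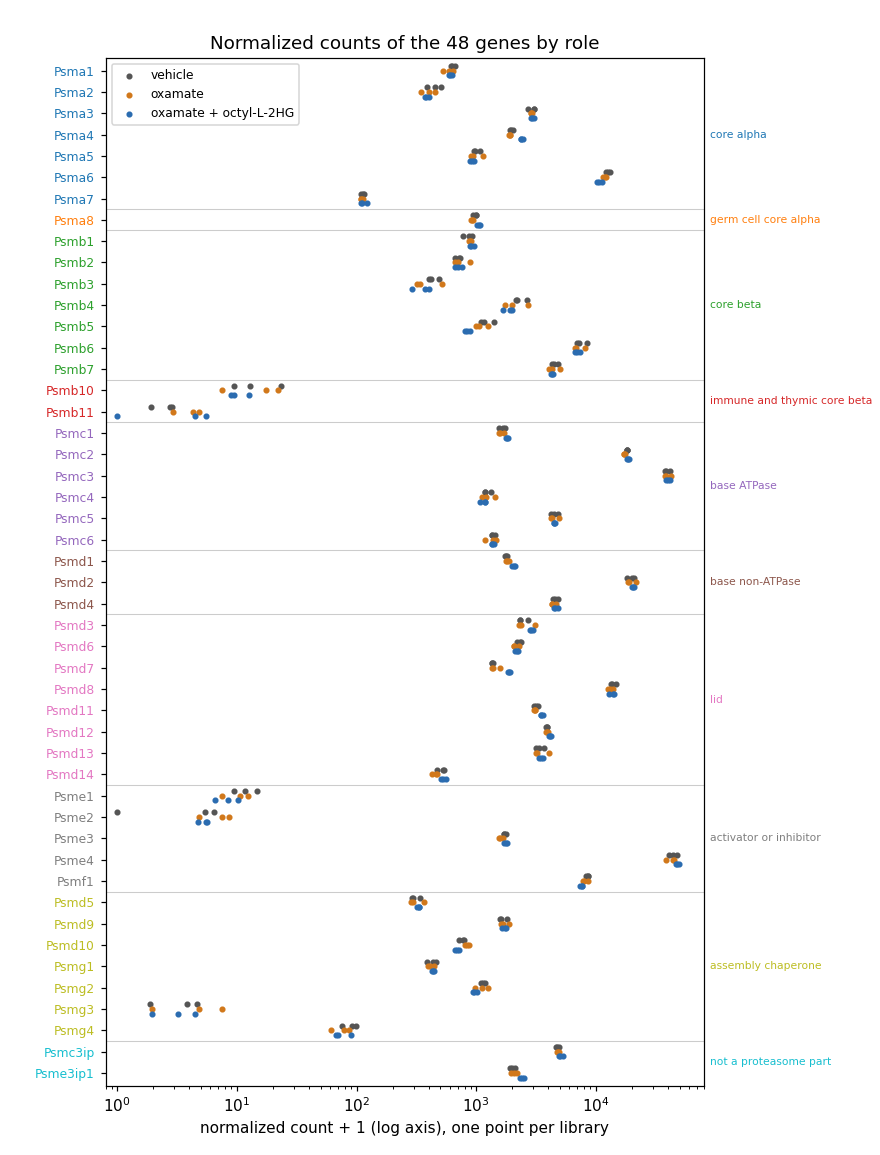
Normalized count plus 1 (log axis) of each of the 48 members, with a point for each of the 9 libraries, coloured by group and ordered by role in the particle. Psme4 and Psmc3 sit at the top of the range, the immune subunits, Psme1, Psme2 and Psmg3 at the bottom, and the groups lie close together for nearly every gene.

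Where germ cells and other cells use different subunits, RS showed the germ cell form. Psma8, the germ cell alpha subunit, had 996, 1001 and 938 normalized counts with vehicle. With oxamate the values were 928, 899.9 and 943, and with both compounds 1009.6, 1066 and 1059. Psma7, which Psma8 replaces, had 113, 115 and 108 with vehicle, 112, 109 and 107 with oxamate and 108, 122 and 110.5 with both. In every library Psma8 was the higher, also per kilobase. The ratio of their counts was 8.74 ± 0.0758 (SD, n = 3) in vehicle libraries, 8.44 ± 0.295 under oxamate and 9.23 ± 0.446 under both compounds, or 5.98 ± 0.0518, 5.77 ± 0.202 and 6.31 ± 0.305 per kilobase. The exact two-sided permutation test over libraries, whose smallest possible p with 3 against 3 is 0.1, gave p = 0.3 for oxamate against vehicle, 0.2 for both compounds against oxamate and 0.3 for both against vehicle.

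The subunits of the immune proteasome, which replace the catalytic subunits where interferon acts, were close to absent. Psmb8 and Psmb9 had 2 reads and 1 read in all 9 libraries together. Psmb10, the third of them, had 22.2, 8.53 and 11.9 normalized counts with vehicle, 21.0, 16.4 and 6.58 with oxamate and 7.86, 11.5 and 8.43 with both compounds, and the groups overlapped. Per kilobase its level in vehicle was 0.301 ± 0.151 CPM (SD, n = 3), against 108.6 ± 6.41 for Psmb7, whose place it takes. Psmb11, the thymic subunit, had 1.78, 1.90 and 0.916 normalized counts, then 1.91, 3.85 and 3.29, then 4.49, 3.46 and 0.

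Among the activators, Psme1 and Psme2 had few reads and their groups overlapped. Psme1, which with Psme2 forms a ring that interferon also induces, had 10.7, 8.53 and 13.7 normalized counts with vehicle, 11.4, 9.62 and 6.58 with oxamate and 5.62, 9.22 and 7.49 with both compounds. Psme2 had 4.44, 0 and 5.49, then 7.62, 3.85 and 6.58, then 4.49, 4.61 and 3.74. Psme3, which forms the ring found in nuclei, reached 18.04 ± 0.418 CPM per kilobase with vehicle, against 0.274 ± 0.0635 for Psme1 and 0.0954 ± 0.0839 for Psme2. In the Psme2 transcript 51.7% of the stretches of 75 bases also occur in Psme2b, which makes its low count less certain.

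Sequence before the start sites is shown for called members that encode a part, a chaperone or an inhibitor of the particle (Psmb5, Psma6, Psmd10, Psma4 and Psmf1, but not Psmd7), since the transcription factor Nfe2l1, described below, is known to activate proteasome genes through an antioxidant response element. RefSeq promoters were found for 40 of the 48 members, with 44 start sites between them. Both strands of the 250 bases before each start were searched for the core of that element (TGACNNNGC), for the CCAAT box (CCAAT) and for the ETS core (CCGGAAG). The element's core stood in 5 of the 44 member promoters, 11.4%, against 10.2% of all 32851 promoters. The CCAAT box stood in 15, 34.1%, against 33.8%, and the ETS core in 14, 31.8%, against 6.91%. The ETS core was thus more frequent among member promoters than among all promoters, and the others stood at about the same share. All promoters were not matched to the members for expression or base composition. The 14 include Psmc3ip, which is not a proteasome part, and both starts of Psmc2. The sequences, from GRCm38.p6 and read on the strand of the gene, carry any of the 3 motifs in capitals, and positions are those of the first base, counted back from -1 just before the start.
Psmb5, chr14:54617996-54618245, minus strand: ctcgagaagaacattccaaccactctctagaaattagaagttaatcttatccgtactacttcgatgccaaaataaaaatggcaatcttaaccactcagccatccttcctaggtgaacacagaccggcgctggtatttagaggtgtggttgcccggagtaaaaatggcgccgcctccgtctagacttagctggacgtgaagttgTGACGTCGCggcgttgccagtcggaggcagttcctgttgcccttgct
Psma6, chr12:55398575-55398824, plus strand: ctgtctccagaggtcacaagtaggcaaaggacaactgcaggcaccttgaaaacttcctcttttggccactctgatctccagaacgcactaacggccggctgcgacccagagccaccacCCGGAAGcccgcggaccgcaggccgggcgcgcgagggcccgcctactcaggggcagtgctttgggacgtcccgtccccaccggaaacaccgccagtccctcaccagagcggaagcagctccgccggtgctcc
Psmd10, chrX:140956712-140956961, minus strand: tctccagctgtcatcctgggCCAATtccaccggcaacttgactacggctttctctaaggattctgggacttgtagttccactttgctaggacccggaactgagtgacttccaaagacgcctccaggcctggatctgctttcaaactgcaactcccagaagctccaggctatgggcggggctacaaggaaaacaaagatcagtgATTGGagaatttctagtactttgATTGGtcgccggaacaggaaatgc
Psma4, chr9:54950609-54950858, plus strand: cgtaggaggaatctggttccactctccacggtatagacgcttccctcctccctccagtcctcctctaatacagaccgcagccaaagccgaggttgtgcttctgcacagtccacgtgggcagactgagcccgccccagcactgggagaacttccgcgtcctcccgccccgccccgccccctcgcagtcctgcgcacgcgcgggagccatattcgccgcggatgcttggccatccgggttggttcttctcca
Psmf1, chr2:151741311-151741560, minus strand: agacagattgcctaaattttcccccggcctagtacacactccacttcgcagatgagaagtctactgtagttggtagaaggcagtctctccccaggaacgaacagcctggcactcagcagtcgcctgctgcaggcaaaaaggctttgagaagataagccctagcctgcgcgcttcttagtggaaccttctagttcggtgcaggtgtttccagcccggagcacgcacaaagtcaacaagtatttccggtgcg

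In these windows Psmb5 held the core of the antioxidant response element at position -47, the start for Psma6 shown here held an ETS core at -132, Psmd10 held the CCAAT box or its complement at -230, -47 and -24, and Psma4 and Psmf1 held none of the 3. A second start of Psma6 in the table, not printed, held CCAAT boxes at -136 and -29. A match of letters is a description of the sequence and says nothing of whether a factor binds there.

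No proteasome gene passed the test with oxamate alone. None of the 48 members was called higher or lower against vehicle by the quasi-likelihood test of edgeR, with p-values adjusted by the Benjamini-Hochberg method over all genes tested, while 3.97% of all genes tested were called higher and 1.22% lower. At an unadjusted p under 0.05 the count of members was 0 too, where 2557 of the 25128 genes were higher and 1790 lower. With DESeq2 it was 0 in each direction, where 3.92% of all genes were called higher and 1.07% lower. Among the 42 members that averaged 100 or more normalized counts, the share called was 0, against 9.67% of the 10715 genes at that level. The log2 fold changes of these 42 ran from -0.18 to 0.14 with a median of -0.028, against a median of 0.00975 for all genes at that level. Every one of the 42 had a 95% confidence interval inside a 1.5-fold change in either direction, with bounds from -0.45 to 0.30. The catalytic subunits Psmb5, Psmb6 and Psmb7 had log2 fold changes of -0.13, -0.057 and -0.030.

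Leaving out oxamate library 4 altered this comparison. Psmb4, a beta subunit of the core without catalytic activity, had 2677, 2137 and 2187 normalized counts with vehicle, 2725, 1978 and 1722 with oxamate and 1688, 1896 and 1983 with both compounds. Library 4 was above every vehicle library, and libraries 5 and 6 were below all of them. Psmb3, also a beta subunit that does not cut, showed the same with 487, 401 and 414, then 520.1, 339.7 and 317, then 292, 399 and 373, and 33.1% of the stretches of 75 bases in its transcript also occur in other genes. Without library 4, Psmb3 and Psmb4 were called lower with oxamate, by -0.40 (adjusted p = 0.0111) and -0.33 (adjusted p = 0.0176) on the log2 scale, where 6.31% of all genes tested were called higher and 2.87% lower by edgeR's test. These 2 genes were named after their values were seen.

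With octyl-L-2HG added to oxamate, 4 of the 48 members differed from oxamate alone, 2 in each direction. Psma4, a core alpha subunit, and Psmd7, a scaffold subunit of the lid that pairs with the deubiquitinase Psmd14, rose. Psmb5, the catalytic subunit with chymotrypsin-like activity, and Psmd10, a chaperone that assembles the base and leaves the finished particle, fell. Among all genes tested, 3.18% were called higher and 8.06% lower in this comparison, and 4.17% of the members were called in each direction. Of the 42 well-expressed members 9.52% were called in either direction, against 19.8% of all genes at that level. At an unadjusted p under 0.05 there were 8 members higher and 4 lower, while 2135 of all 25128 genes tested were higher and 3799 lower. The comparison shares the oxamate libraries with the preceding one.

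Against vehicle, both compounds together changed 6 members. Psma4, Psmd7 and Psme3ip1 rose, and Psma6, Psmb5 and Psmf1, which encodes an inhibitor of the core particle, fell. Here 7.48% of all genes tested were called higher and 10.6% lower, against 6.25% of the members in each direction, and among well-expressed genes 29.5% were called in either direction, against 14.3% of the 42 members. The median log2 fold change of the 48 members was -0.0057, and that of all genes tested was -0.045. In the test of any difference among the 3 groups 6 members passed (Psma4, Psma6, Psmb5, Psmd7, Psmd10 and Psme3ip1), 12.5% of the 48, against 19.8% of all genes tested. No set test was run, so that the lower shares among the members are a description.

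**Figure D2:**
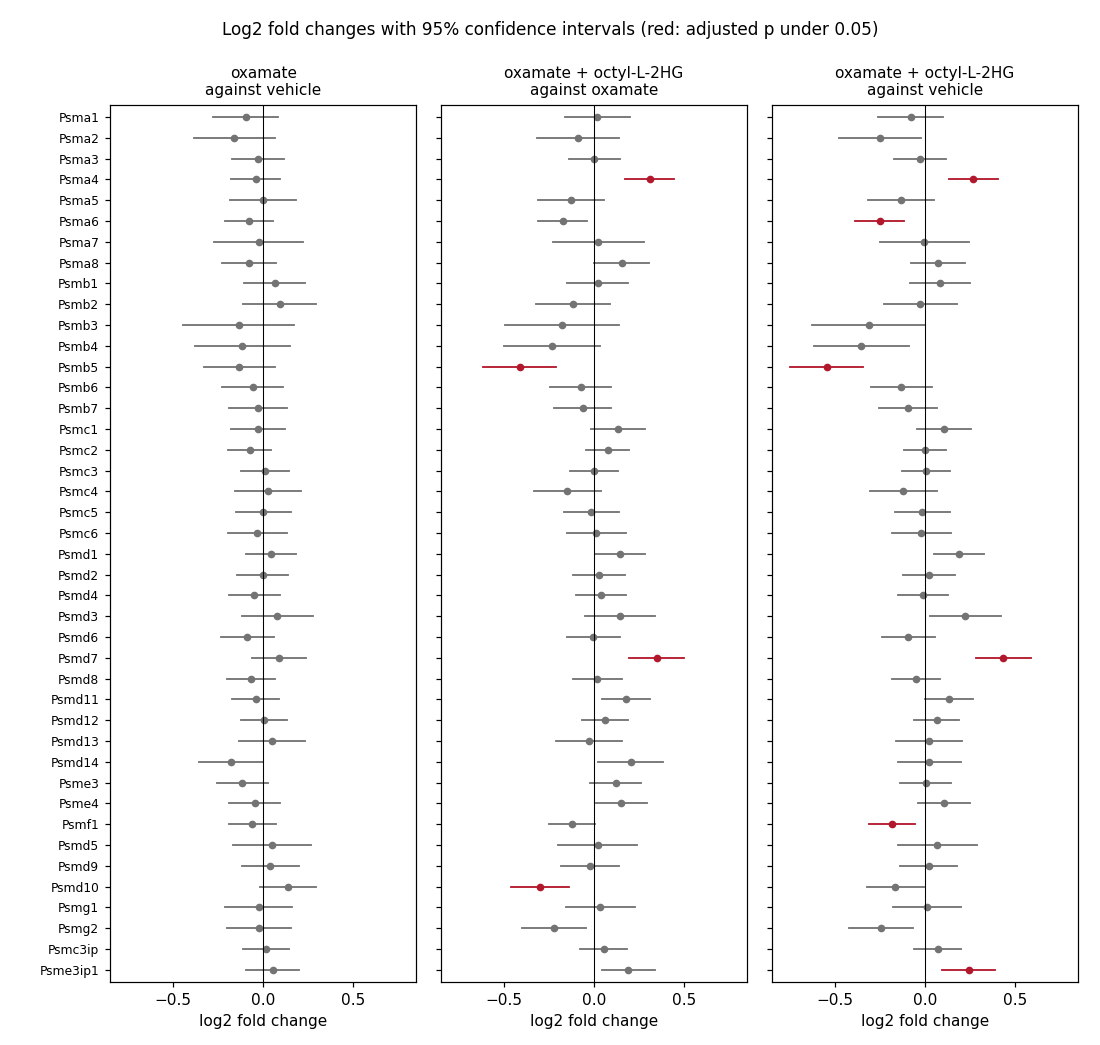
Log2 fold change (x axis) with its 95% confidence interval for the 42 members that averaged 100 or more normalized counts, in the 3 comparisons. Intervals of genes with an adjusted p under 0.05 are red: none with oxamate alone, 4 with octyl-L-2HG added to oxamate and 6 with both compounds against vehicle.

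Psmd7 showed the largest rise among the members called. It had 1355, 1343 and 1373 normalized counts with vehicle, 1574, 1355 and 1381 with oxamate and 1868, 1897 and 1826 with both compounds. The libraries with both compounds lay above all others, and those of vehicle and oxamate overlapped. The log2 fold change of Psmd7 was 0.35 ± 0.073 (SE, adjusted p = 0.00313, edgeR) against oxamate and 0.44 ± 0.073 (adjusted p = 0.000191) against vehicle. Psma4 had 1907, 2019.6 and 1943 with vehicle, 1873, 1915 and 1897 with oxamate and 2462, 2354 and 2363 with both compounds, again with the last group above all other libraries. Its log2 fold change was 0.31 ± 0.065 (adjusted p = 0.0033, edgeR) against oxamate and 0.27 ± 0.065 (adjusted p = 0.00553) against vehicle. Both genes passed in all 16 alternative fits of both comparisons. Of the stretches of 75 bases in the Psma4 transcript, 12.9% also occur in the pseudogene Gm6542, so that some reads could have been assigned elsewhere or dropped.

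Psmb5 showed the largest fall among the members called. It had 1393, 1149.6 and 1092 normalized counts with vehicle, 1244, 1059 and 1001 with oxamate and 809.7, 830.0 and 887 with both compounds. Each of the last 3 values is below the other 6. Its log2 fold change was -0.41 ± 0.098 (SE, adjusted p = 0.0081, edgeR) against oxamate and -0.55 ± 0.097 (adjusted p = 0.000367) against vehicle. It passed against vehicle in all 16 alternatives and against oxamate in 15, the exception being the fit without library 7 (adjusted p = 0.063). In its transcript 40.0% of the stretches of 75 bases also occur in Gm3375 or Mir686, which makes its count less certain than that of a gene with unique sequence. Psmb6, another catalytic subunit, had 8396, 7232 and 6996 with vehicle, 8111, 6711 and 6852 with oxamate and 7387, 6918 and 6691 with both compounds. Psmb7, the remaining catalytic subunit, had 4823, 4431 and 4335, then 4975, 4257 and 4031, then 4239, 4303 and 4384. The groups overlapped for both genes, and their log2 fold changes against vehicle were -0.13 (95% interval -0.30 to 0.039) for Psmb6 and -0.094 (-0.25 to 0.066) for Psmb7.

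Psma6 and Psmd10 fell by less. Psma6 had 13182, 12503 and 12036 normalized counts with vehicle, 12237, 11951 and 11467 with oxamate and 10304, 10603 and 11262 with both compounds, and each library of the last group was below all others. Against vehicle the log2 fold change was -0.25 ± 0.065 (SE, adjusted p = 0.00851, edgeR), and against oxamate it was -0.17 (adjusted p = 0.0892). Psmd10 had 772, 723 and 793 with vehicle, 871, 808 and 829.9 with oxamate and 668, 689 and 715 with both compounds. Its oxamate libraries were the highest of the 9 and those with both compounds the lowest. The log2 fold change was -0.30 ± 0.077 (adjusted p = 0.013, edgeR) against oxamate, and with oxamate against vehicle it was 0.14 (adjusted p = 0.372). Both calls were lost without library 7 and without library 8, where the highest adjusted p was 0.0612 for Psma6 and 0.0772 for Psmd10.

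Psme3ip1 and Psmf1 stood near the threshold. Psme3ip1 had 2089.7, 2004 and 1918 normalized counts with vehicle, 2201, 1942 and 2077 with oxamate and 2509, 2398 and 2324 with both compounds, all of the last above the others. Against vehicle its log2 fold change was 0.24 ± 0.071 (SE, adjusted p = 0.0183, edgeR), and it passed in 12 of 16 alternatives, with the call lost under total counts and without library 3, 7 or 8 (highest adjusted p = 0.0943). Psmf1 had 8565, 8333 and 8541 with vehicle, 8564, 7928 and 7836 with oxamate and 7690.4, 7418 and 7656 with both. Against vehicle it changed on the log2 scale by -0.18 ± 0.062 (SE, adjusted p = 0.0462, edgeR), and it passed in 7 of 16 alternatives. The call was lost with DESeq2 size factors, with no filter on low counts and without any of libraries 1, 2, 3, 5, 7, 8 and 9 (highest adjusted p = 0.25).

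**Figure D3:**
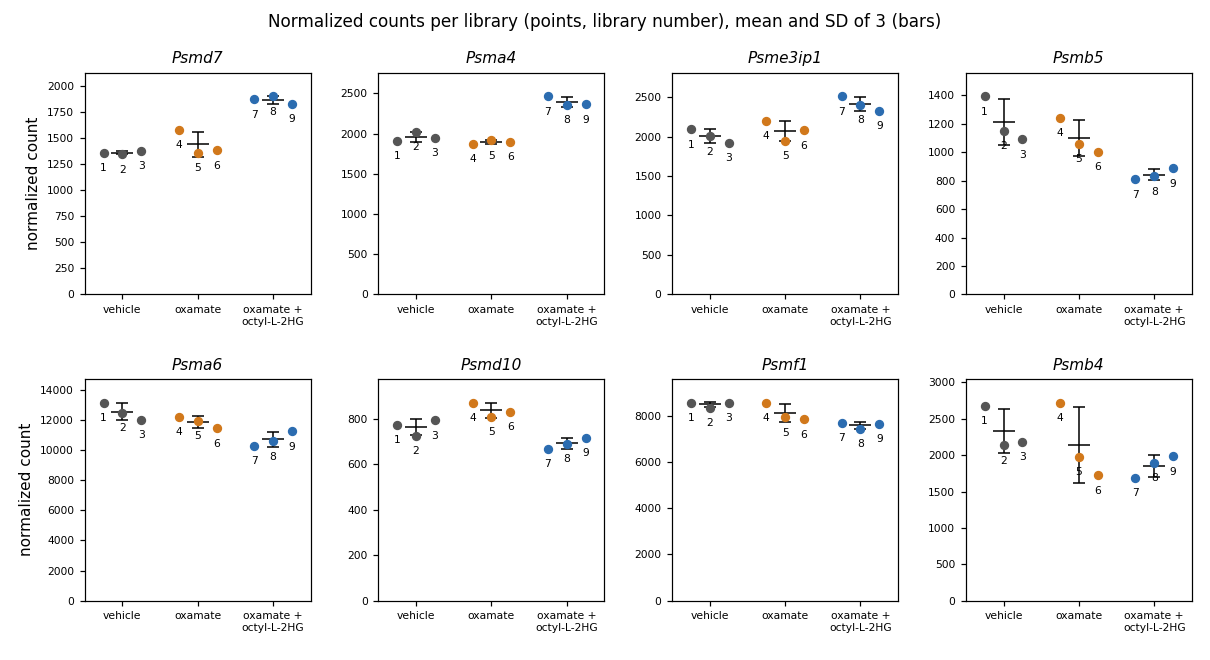
Normalized counts (y axis from 0) of the 7 members called in any pairwise comparison and of Psmb4, with a numbered point for each library and bars for the mean and SD of 3. Libraries 7 to 9 lie apart from the others for Psmd7, Psma4, Psmb5 and Psma6, and library 4 lies above libraries 5 and 6 for Psmb4.

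Without oxamate library 4 more members passed in the comparisons with octyl-L-2HG as well. Against oxamate, Psmd3 and Psmd11 of the lid and Psme3ip1 joined the genes called higher, to make 5, and Psmb5 and Psmd10 were again called lower, where 6.27% of all genes tested were higher and 11.3% lower by edgeR's test. Against vehicle 5 members were called higher and 7 lower, where 11.1% of all genes tested were higher and 13.5% lower. The genes called lower were then Psma2, Psma6, Psmb3, Psmb4 and Psmb5 of the core, Psmf1 and the core chaperone Psmg2. The genes called higher were Psma4 of the core, Psmd1 of the base, Psmd3 and Psmd7 of the lid, and Psme3ip1. Any difference among the groups was called for 14 members, against 29.2% of all genes tested.

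By role, most core genes had fold changes below 0 with both compounds and most genes of the regulatory particle above 0, though few of either passed. Of the 15 core genes, with Psma8 and without the immune and thymic subunits, 12 had a log2 fold change below 0 against vehicle, with a median of -0.094. Of the 17 genes of base and lid, 11 had one above 0, with a median of 0.021. Among the core genes Psma6 and Psmb5 fell and Psma4 rose by edgeR's test, and of the 17 regulatory genes 1, Psmd7, rose. With oxamate alone 13 of the 15 core genes had a value below 0 and 9 of the 17 regulatory genes, and none passed. Of all 25128 genes tested, 13811 had a value below 0 with both compounds against vehicle and 13064 with oxamate alone. Among the 10715 genes averaging 100 or more normalized counts, 5987 lay above 0 and 4728 below with both compounds against vehicle. With oxamate alone 5616 lay above 0 and 5099 below. Scaling by total counts shifted log2 fold changes with both compounds against vehicle by a median of -0.063, more than the median of the regulatory genes. The summed regulatory genes then had -0.044. Vehicle library 1 was the highest of its group for 11 of the core genes, and without it the log2 difference of the summed core genes with oxamate went from -0.060 to -0.010. The 6 ATPases of the base had log2 fold changes from -0.12 to 0.11 with both compounds against vehicle, and none passed in any comparison.

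Summed over genes, the core particle had 1139, 1056 and 998 CPM with vehicle, 1113, 993 and 957.9 with oxamate and 948.5, 954.8 and 983.3 with both compounds. The libraries with both compounds lay below every vehicle library, by 0.14 on the log2 scale (exact permutation p = 0.1, the smallest possible), and overlapped with oxamate. The abundant Psma6 carried much of this difference. Without it the core sum was 772, 705.6 and 665.6 CPM with vehicle and 667.5, 665.1 and 672 with both compounds, so that the groups overlapped, and the log2 difference was -0.094 (exact permutation p = 0.3). Leaving out vehicle library 1 in place of Psma6 also gave -0.094, and against oxamate the difference of the full sum moved from -0.083 to -0.020 without library 4. The regulatory particle had sums of 3583, 3334 and 3373, then 3623, 3280.0 and 3270.0, then 3541, 3446 and 3437 CPM, with full overlap. The ratio of the core sum to the regulatory sum, taken after the data were seen, was 0.318, 0.317 and 0.296 with vehicle, 0.307, 0.303 and 0.293 with oxamate and 0.268, 0.277 and 0.286 with both compounds. Every library with both compounds had a lower ratio than every other library. The means were 0.310 ± 0.0124, 0.301 ± 0.00729 and 0.277 ± 0.00911 (SD, n = 3), and the exact permutation test gave its smallest possible p of 0.1 for both compounds against oxamate and against vehicle and p = 0.3 for oxamate against vehicle. With Psma6 left out, the log2 difference of the ratio went from -0.16 to -0.11 against vehicle and from -0.12 to -0.077 against oxamate, both again at the exact permutation p of 0.1. A sum of counts weighs long and abundant transcripts most.

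**Figure D4:**
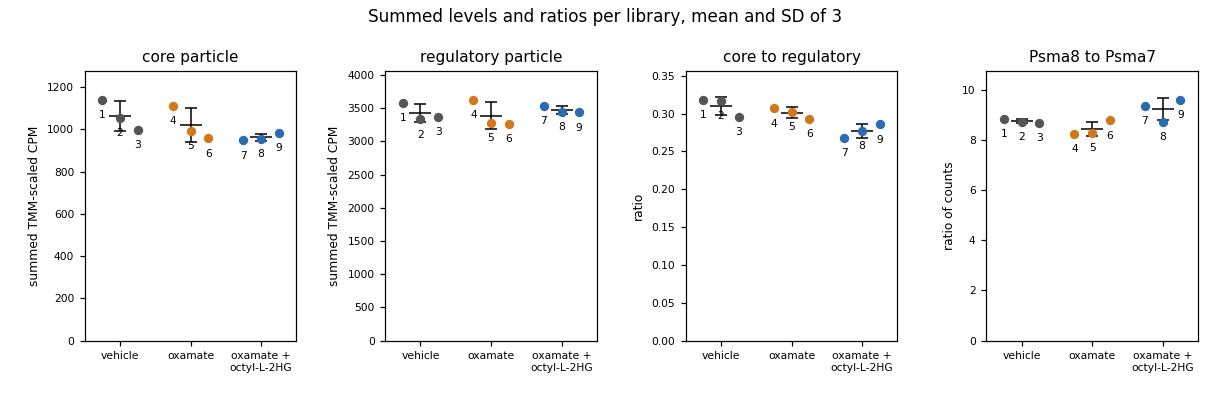
Summed TMM-scaled CPM of the core and regulatory particle genes, the ratio of these sums and the ratio of Psma8 to Psma7 counts (y axes from 0), with a numbered point for each library and bars for the mean and SD of 3. The core-to-regulatory ratio of libraries 7 to 9 lies below all others, while the regulatory sums overlap.

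No activator gene and 1 chaperone gene, Psmd10, passed in a pairwise comparison. Summed over Psme1 to Psme4 and Psmf1, the group of activators and the inhibitor had 1415, 1518 and 1588 CPM with vehicle, 1360.0, 1498 and 1505 with oxamate and 1562, 1535 and 1618 with both compounds. The sum with both compounds was above that of every oxamate library, by 0.11 on the log2 scale, with the smallest possible exact permutation p of 0.1, and it overlapped with vehicle (p = 0.4). The difference from oxamate was 0.066 without library 4 and 0.068 with scaling by total counts. Psme4 had 38146, 44199.9 and 44909 normalized counts with oxamate and 47759.8, 47029.7 and 49134 with both compounds, higher in each library than with oxamate, and the highest vehicle library, at 47209, lay among them. For Psme4 the log2 fold change was 0.15 ± 0.069 (SE, adjusted p = 0.177, edgeR) against oxamate and 0.11 ± 0.069 (adjusted p = 0.331) against vehicle. Psme3 had 1704, 1762 and 1717 with vehicle, 1664, 1537 and 1569 with oxamate and 1808, 1704 and 1766 with both, for which the log2 fold change against oxamate was 0.12 (adjusted p = 0.313). Of the 7 chaperone genes the remaining 6 (Psmd5, Psmd9 and Psmg1 to Psmg4) were called in none, and Psmg2 had the lowest adjusted p of these, 0.0518 against vehicle, at a log2 fold change of -0.24.

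Of 38 partner genes considered outside the name pattern, 37 were tested, and Paaf1 was not analysed here. With oxamate against vehicle 1 rose (Nploc4) and 1 fell (Rps27a). With octyl-L-2HG added to oxamate 4 rose (Nfe2l1, Uchl5, Rad23b and Nploc4) and 4 fell (Ubqln2, Ubqlnl, Midn and Uba1). With both compounds against vehicle 2 rose (Nfe2l1 and Nploc4) and 7 fell (Sem1, Nfe2l2, Ubqlnl, Ufd1, Midn, Rps27a and Uba1). Calls lost in alternatives are given below beside the values of the genes whose values per library are printed. For the remaining genes, the calls of Rad23b, Ubqln2 and Ubqlnl against oxamate were each lost in at least 4 of the alternatives. So was that of Rps27a with oxamate alone. The call of Rad23b was lost under total counts and without library 5, 7, 8 or 9, and that of Ubqln2 with no filter on low counts and without library 5, 6, 7, 8 or 9. The call of Ubqlnl was lost in the fit of only those 2 groups and without library 3, 5, 6, 7, 8 or 9, and that of Rps27a in the fit of only its 2 groups and without library 1, 2 or 5. The shares of all genes called in these comparisons are those given above for the members.

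Nfe2l1, the transcription factor that raises proteasome genes when the particle is short, had 587, 541 and 601 normalized counts with vehicle, 704, 607 and 595 with oxamate and 798, 757 and 778 with both compounds. The last group lay above all other libraries. It rose by 0.26 ± 0.084 on the log2 scale (SE, adjusted p = 0.0444, edgeR) against oxamate and by 0.41 ± 0.084 (adjusted p = 0.00131) against vehicle. The call against vehicle held in all 16 alternatives, while that against oxamate held in 8 and was lost under total counts and without library 2, 3, 5, 6, 7, 8 or 9 (highest adjusted p = 0.188). Ddi2, the protease that activates the protein of Nfe2l1, had 283, 292 and 316, then 358, 313 and 303, then 357, 371 and 357, and did not pass (0.26, adjusted p = 0.0571, against vehicle). Nfe2l2, the related factor of the antioxidant response, had 405, 470.1 and 529 with vehicle, 359, 515 and 469 with oxamate and 366, 347 and 387 with both. Against vehicle its log2 fold change was -0.37 ± 0.12 (adjusted p = 0.029, edgeR), and the call was lost without library 2, 3, 7, 8 or 9 (highest adjusted p = 0.168). Against oxamate Nfe2l2 was not called (adjusted p = 0.0959, edgeR), except as lower in the fit without library 4 (adjusted p = 0.000817).

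Of the 5 genes considered for ubiquitin and its activation, 2 fell with both compounds against vehicle (Rps27a and Uba1) and none rose. Among all genes tested, 10.6% were called lower and 7.48% higher in this comparison. Uba1, the enzyme that activates ubiquitin, had 4136, 3636 and 4360.1 normalized counts with vehicle, 4689, 4241 and 4154 with oxamate and 3544, 3547 and 3498 with both compounds. The last group was below all others, with log2 fold changes of -0.33 ± 0.073 (SE, adjusted p = 0.00479, edgeR) against oxamate and -0.22 ± 0.073 (adjusted p = 0.0417) against vehicle. The second call was lost in 9 of 16 alternatives, among them DESeq2 and the fits without library 1, 3, 5, 7, 8 or 9 (highest adjusted p = 0.206). Ubb, a polyubiquitin gene, had -0.093 against vehicle (adjusted p = 0.426).

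Delivery factors moved both ways. Nploc4, which guides ubiquitin-tagged proteins to the unfolding enzyme Vcp, had 3648, 3148 and 3423 normalized counts with vehicle, 6136, 4522 and 4484 with oxamate and 6445, 6693 and 6736 with both compounds, and no group overlapped another. The rise was 0.57 ± 0.095 on the log2 scale (SE, adjusted p = 0.000724, edgeR) with oxamate against vehicle and 0.37 ± 0.094 (adjusted p = 0.0143) with octyl-L-2HG added, the latter lost without library 5, 6, 7, 8 or 9 (highest adjusted p = 0.103). Ufd1, whose product forms a dimer with that of Nploc4, had 2470.0, 2479 and 2521 with vehicle and 2023, 2079.6 and 2052 with both, which gave a log2 fold change of -0.30 ± 0.066 (adjusted p = 0.00242, edgeR). Midn, which carries proteins to the proteasome without ubiquitin, had 609.5, 599 and 664, then 574, 509 and 534, then 430.1, 378 and 369.8, and fell against oxamate by 0.49 on the log2 scale (adjusted p = 0.00104, edgeR).

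Of the partners that sit on the particle itself, Uchl5 and Sem1 were each called in a single comparison. Uchl5, a deubiquitinase of the base, had 1968, 2187 and 2221 normalized counts with vehicle, 1759, 1961 and 2163 with oxamate and 2574, 2393 and 2427 with both, which gave a log2 fold change of 0.31 ± 0.077 (SE, adjusted p = 0.0121, edgeR) against oxamate that was lost without library 5 or 7. Sem1, the smallest subunit of the lid, had 3429, 3239 and 3106, then 2985, 3075 and 3159, then 3097, 2858 and 2691, with a log2 fold change of -0.20 against vehicle (adjusted p = 0.0484, edgeR) that passed in 5 of 16 alternatives and was lost with DESeq2 and without library 1, 2, 3, 5, 6, 8 or 9. Pomp, the chaperone that matures the core, the ubiquitin receptor Adrm1 and the deubiquitinase Usp14 passed in no comparison.

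**Figure D5:**
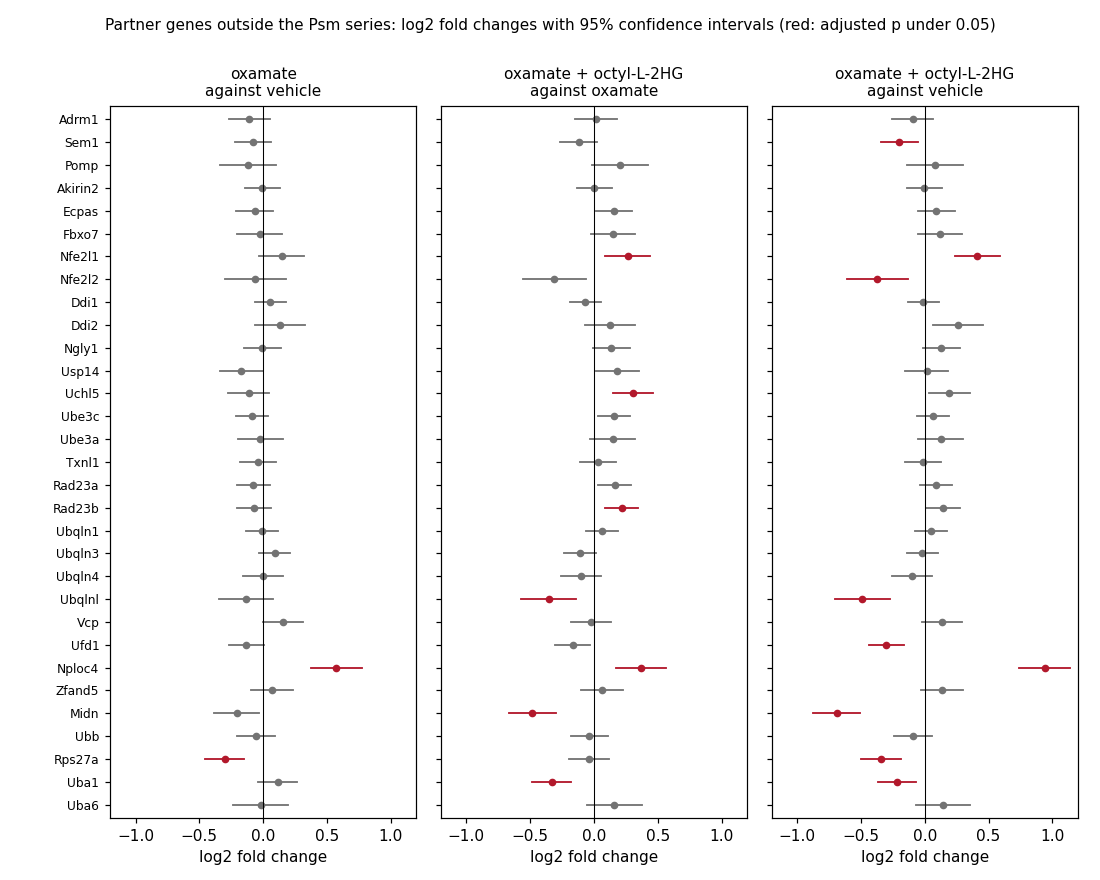
Log2 fold change (x axis) with its 95% confidence interval for the 31 partner genes that averaged 100 or more normalized counts, in the 3 comparisons, with genes at an adjusted p under 0.05 in red. Nploc4 is higher and Midn and Ubqlnl are lower with both compounds, and with oxamate alone only Nploc4 and Rps27a are red.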

How the data were processed

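The authors trimmed the reads with cutadapt 2.10, aligned them with TopHat2 2.1.1 and counted them per gene with HTSeq 2.01, as named in the submitters' processing notes, and deposited raw counts for RS. They also deposited a normalized signal, the counts divided by DESeq2 1.36.0 size factors. The libraries were stranded and the strand setting of the counting was not given in the sources used here. The files have GRCm39 annotation, while transcript lengths, shared stretches and promoters came from GRCm38 annotations, matched by gene identifier or symbol. No column of values went unused.

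Genes with a summed count of 10 or more (25128) entered edgeR 4.0.16 under R 4.3.3 (TMM scaling, a robust quasi-likelihood fit of all 9 libraries together, group as the only term, Benjamini-Hochberg adjustment, threshold 0.05). Standard errors were derived from the F statistic, and 95% intervals from its degrees of freedom. Sums and ratios were compared by exact two-sided permutation tests over libraries. Alternatives were DESeq2 1.42.0, DESeq2 size factors, total counts, other filters on low counts, fits on the pair of groups alone and fits leaving out each library. The ratio of core to regulatory sums, and both without Psma6, were added after the data were seen. On simulated data for oxamate against vehicle (24629 genes), 57 of 100 genes changed 1.3-fold and 100 of 100 changed 2-fold were recovered, and 11 unchanged genes were called. The changed genes were all raised, averaged at least 100 counts, and were the only ones to change. In the data 997 genes were called higher and 306 lower, so that recovery there can differ, and recovery at low counts was not simulated.

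All genes matching the rule were counted, and values per library were given for Psma7, Psma8, the catalytic and immune subunits, the activators and the members called in any pairwise comparison; partner genes were named where called, with Ddi2, Pomp, Adrm1 and Usp14 in any case. A gene of the partner list is not reported here and is in none of its counts. The members and lists were chosen with earlier results of these data known. Psmb8 to Psmb5 and Psmb9 to Psmb6 ratios were not computed, since Psmb8 and Psmb9 were under the read minimum.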

Additional observations from a re-analysis of the deposited data

How the results depend on the processing

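The 5 members with a mean normalized count under 20 have wide intervals. No paired analysis was run. The libraries are numbered consecutively through the groups, and the labels do not state whether libraries of different groups share a preparation. Of the 48 members, libraries 1, 4 and 7 were the highest of their groups for 30, 35 and 21. Of the 15 core genes, library 7 was the highest for 3. Whether these libraries share a preparation was not tested. Psma4 and Psmd7 passed in both comparisons with octyl-L-2HG under all 16 alternatives. Library 4 and libraries 7 and 8 decide the counts most, and the cause was not tested. Losses of calls of single genes stand beside their values. Without library 4, 14 members (29.2%) differed among the groups in place of 6, as did 29.2% of all genes tested in place of 19.8%. Without library 7 or library 8 it was 3 members (6.25%), against 12.6% and 12.9% of all genes. In these fits the count of members with any difference moved in the same direction as the share of all genes. Elsewhere it did not: without library 6 and with DESeq2, 8 members passed, against 19.1% and 19.0% of all genes.

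The number of members called moved as follows. Leaving out each library gave 0 to 2 lower with oxamate against vehicle, 2 to 5 higher and 0 to 4 lower with octyl-L-2HG against oxamate, 2 to 5 higher and 1 to 7 lower with both compounds against vehicle, and 3 to 14 with any difference. The shares of all genes in the same fits were 0.497% to 2.87%, 0.947% to 6.27% and 4.50% to 11.3%, 4.62% to 11.1% and 7.16% to 13.5%, and 12.6% to 29.2%, in the same order, with every highest share without library 4. The 0 and the 4 members lower against oxamate, without library 7 and without library 6, stood beside 4.56% and 6.33% of all genes. Against oxamate, DESeq2, DESeq2 size factors and edgeR's own filter each gave 4 higher, no filter gave 5 higher, and total counts gave 4 lower. Against vehicle, no filter and a fit of only those 2 groups gave 5 higher, that fit gave 6 lower, and total counts gave 7 lower. In these fits, of all genes tested, against oxamate, 5.01%, 4.40% and 6.44% were higher in the first 3 and 3.85% with no filter, and 10.0% lower under total counts; against vehicle, 7.25% were higher with no filter, 11.3% higher and 12.2% lower in the fit of 2 groups, and 13.4% lower under total counts.

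The summed regulatory particle reversed with total counts, to -0.0080 on the log2 scale against oxamate and -0.044 against vehicle, as did the activators against vehicle, to -0.0013. Over the libraries left out, the core sum ran from -0.12 (without library 4) to -0.010 (without library 1) with oxamate, from -0.13 to -0.020 (without library 4) against oxamate and from -0.19 to -0.094 (without library 1) with both compounds against vehicle. The core sum other than Psma6 crossed 0 with oxamate (-0.13 to 0.0045) and against oxamate (-0.092 to 0.040). The activator sum ran from 0.066 to 0.14 against oxamate. The regulatory sum ran from -0.066 to 0.014 with oxamate and from -0.0011 to 0.051 with both compounds against vehicle, the chaperone sum from -0.039 to 0.084 with oxamate, and the ratio of Psmb10 to Psmb7 from -0.26 to 0.47 with oxamate.
Log2 fold changes of single genes that crossed 0 as libraries were left out, none of them called in the full fit, were, with oxamate against vehicle, -0.34 to 0.021 for Psmb4, -0.078 to 0.17 for Psmd3, -0.10 to 0.019 for Psme4, -0.12 to 0.065 for Psmg2, -0.18 to 0.074 for Nfe2l2 and -0.24 to 0.011 for Ubqlnl, and, with octyl-L-2HG against oxamate, -0.31 to 0.090 for Psmb3. Rps27a moved to 0.0032 against oxamate with no filter.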
